A study of Mus musculus with 6 samples.

Results

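Langerhans cells are the resident antigen-presenting cells of the epidermis, and macrophages are phagocytes of the dermis and of the tissue around the follicle. The genes described here mark one or both of these cell types, and 34 were listed by name from general knowledge of myeloid cells. They were chosen with earlier results of these data known, so the list is not independent of the data. A gene was taken where the array had a feature (a probe set for 1 transcript cluster) annotated with exactly 1 gene symbol and that symbol was on the list. This gave 33 genes of 22180 measured in this way, and each of the 33 had exactly 1 such feature. The remaining listed gene, Cd74, shares its feature with a microRNA gene and was not analysed here.

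RNA came from hair follicle stem cells of mouse skin at postnatal day 49, sorted by flow cytometry for CD34 and α6-integrin, the only 2 sort markers the labels name. There were 3 wild-type arrays (WT) and 3 arrays from K14-sPLA2-IIA transgenic mice (TG), with 1 sample on each. In TG mice a secreted phospholipase A2 is driven by the keratin 14 (K14) promoter, which is active in the outer root sheath and in basal keratinocytes. The labels give no strain or sex and do not say how many mice gave each sample, so each p-value speaks only of the spread among these 6 samples, which may be technical.

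The genes are not markers of the sorted cell. Langerhans cells sit among keratinocytes, carry langerin (Cd207) and MHC class II molecules, and depend on the receptor Csf1r and its keratinocyte ligand interleukin 34. Macrophages share much of this programme, which rests on the transcription factor PU.1, encoded by Spi1. In RNA from a bulk sort, fewer cells of a type and less RNA per cell cannot be told apart.

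Values are on a log2 scale, as read from their range, and fold values given below hold only if that scale does. Over all features the 6 arrays had medians of 5.90 to 5.99 and lower quartiles of 4.66 to 4.74. Where 3 values are given for a genotype below, they are those of its arrays 1, 2 and 3 in this order. Detection values were not used here, so no gene is called absent. Ms4a7, Ccr2, Ly86 and Clec10a had means under the highest of these lower quartiles, where a difference can be understated. Pla2g2a, the gene of the secreted enzyme, read 5.75 to 6.77 in WT and 12.39 to 12.61 in TG.

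The promoters of 4 genes are shown because Cd207, Itgam and H2-Eb1 were lowest on array 3 of both genotypes and H2-Aa was not, as described below. Each run holds the 250 bases before the RefSeq transcript start in GRCm38.p6, 5′ to 3′ on the gene's strand. Capitals mark GAGGAAG, a core of PU.1 sites, GATTGG, the Y box of MHC class II promoters, and AGCAAC, a part of their X box, each searched on both strands. The windows are chr6:83677858-83678107 on the minus strand for Cd207, chr7:128062390-128062639 on the plus strand for Itgam, chr17:34305617-34305866 on the plus strand for H2-Eb1 and chr17:34287824-34288073 on the minus strand for H2-Aa.
Cd207: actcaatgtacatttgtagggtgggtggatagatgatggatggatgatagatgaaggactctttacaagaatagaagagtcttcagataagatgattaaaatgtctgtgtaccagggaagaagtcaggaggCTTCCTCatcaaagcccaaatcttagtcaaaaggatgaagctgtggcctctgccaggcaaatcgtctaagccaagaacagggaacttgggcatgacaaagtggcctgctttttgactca
Itgam: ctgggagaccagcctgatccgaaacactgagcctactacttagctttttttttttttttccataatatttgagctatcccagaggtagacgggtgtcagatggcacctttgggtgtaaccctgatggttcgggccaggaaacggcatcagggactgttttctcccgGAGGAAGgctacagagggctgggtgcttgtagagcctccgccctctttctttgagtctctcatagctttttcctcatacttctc
H2-Eb1: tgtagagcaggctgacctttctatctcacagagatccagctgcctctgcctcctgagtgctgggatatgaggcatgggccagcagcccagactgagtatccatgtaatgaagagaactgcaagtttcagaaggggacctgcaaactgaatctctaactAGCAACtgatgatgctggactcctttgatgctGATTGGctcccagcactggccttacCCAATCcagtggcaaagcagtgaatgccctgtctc
H2-Aa: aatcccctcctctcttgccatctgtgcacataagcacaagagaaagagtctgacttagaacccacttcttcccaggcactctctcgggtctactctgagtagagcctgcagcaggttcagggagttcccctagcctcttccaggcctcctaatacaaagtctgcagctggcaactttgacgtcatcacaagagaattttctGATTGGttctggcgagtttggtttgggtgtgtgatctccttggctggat

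RefSeq promoters were found for 22 of the 33 genes, which had 25 promoters between them. A gene was counted where any of its promoters held the letters, while the percentages are of single promoters, so the units differ. GAGGAAG stood in the windows of 6 of them, Cd207, Itgam, Fcgr3, Laptm5, C1qc and Mrc1, and in 10.6% of all 32851 promoters in the table. GATTGG stood in those of H2-Eb1, H2-Aa, H2-DMa, Cd68 and Cd163, and in 14.6% of all. AGCAAC stood in those of H2-Eb1, Itgax, Cd68, Cd163 and Mpeg1, and in 12.2% of all. H2-Eb1 held GATTGG at 60 and, on the other strand, at 35 bases before the start, while H2-Aa held it at 49. In Cd207 and Itgam, GAGGAAG began at 119 and 84 bases before the start. A match is a description of letters only.

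None of the 33 genes differed between TG and WT past the threshold of 0.05 on the adjusted p (limma, lowest adjusted p = 0.99996), where 0.00451% of all genes did, the 1 gene being Pla2g2a. At an unadjusted p under 0.05 there was 1 of the 33, Adgre1, against 2.77% of all genes, and 0.843% of all genes were lower in TG at that p. The arrays of the 2 genotypes overlapped for all 33, while they parted for 3.21% of all genes with TG lower and 3.99% with TG higher. Of 9 settings that leave arrays out, 2 parted a larger share of the 33 than of all genes. These were without TG array 2, with 9 of the 33 (27.3%) against 15.8% of all genes, and without both arrays numbered 2, with 12 (36.4%) against 22.7%. In the other 7 the share was smaller, 0.0% to 24.2% of the 33 against 11.4% to 37.7% of all genes. TG was below WT for 24 of the 33 (72.7%), against 52.1% of all genes, with a median difference of -0.12 for the 33 and -0.0075 for all genes. Of 10 suprabasal keratinocyte markers, 10 lay below 0 (median difference -0.47), while 7 of 8 bulge stem cell markers and 6 of 6 fibroblast markers lay above 0 (0.32 and 0.30), and 0 of these passed. The differences of the 33 ran from -0.52 to 0.28, so none reached 1.5-fold with all arrays at equal weight, while 606 of all 22180 genes did. With limma array weights 5 of the 33 reached 1.5-fold, Adgre1 (-0.74), Laptm5 (-0.67), Mpeg1 (-0.65), Tyrobp (-0.64) and Fcer1g (-0.59). The weights of arrays 1, 2 and 3 were 1.31, 1.95 and 0.292 in WT and 4.23, 0.957 and 0.332 in TG. TG array 1 thus counted most, and the arrays numbered 3 counted least. Likewise 5 reached it without TG array 2, with Laptm5 at -0.93 and Tyrobp at -0.82, and 5 without both arrays numbered 2. When other arrays were left out, 0 to 2 of the 33 reached it. The share of all genes was not counted with array weights or with arrays left out, so these counts cannot be set against it. Without TG array 3, TG was below WT for 14 of the 33 and the median was 0.042. Without TG array 2, TG was below WT for 27 and the median was -0.29.

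The 33 genes varied more than genes in general, both within genotypes and over all 6 arrays. Their median standard deviation within genotypes, pooled over WT and TG, was 0.37, against 0.22 over all genes. The range over the 6 arrays exceeded 1 log2 unit for 14 of the 33 (42.4%), against 18.6% of all genes. Array 3 was the lowest of its genotype in both WT and TG for 21 of the 33 (63.6%), where 34.5% of all genes showed this. It was the highest in both for 2 of the 33, Cd163 and Clec10a, against 23.5% of all genes. TG array 2 was the highest of the 6 arrays for 14 of the 33 (42.4%), against 13.4% of all genes. For 10 of the 33 (30.3%) TG array 2 was the highest and TG array 3 the lowest, as for 5.02% of all genes.

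**Figure D1:**
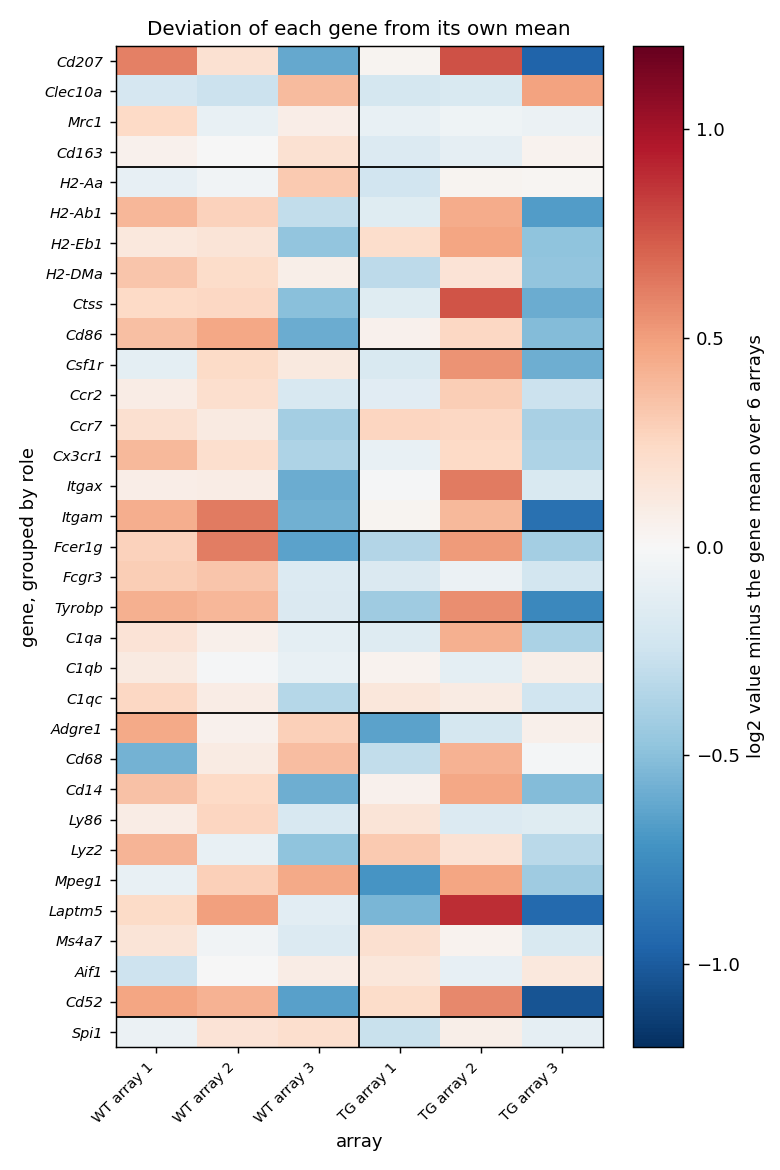
Heat map of the 33 genes (rows, grouped by role with lines between roles) on the 6 arrays (columns); colour gives the log2 value minus the gene's own mean over the 6 arrays. In 21 rows array 3 is the bluest of both genotypes and in 14 rows TG array 2 is the reddest of all 6. Clec10a, Cd163, Mrc1, H2-Aa, Adgre1, Cd68, Aif1, Mpeg1 and Spi1 are not lowest on either array 3.

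Langerin, the lectin that forms the Birbeck granules of Langerhans cells, is encoded by Cd207. Its log2 values were 8.43, 8.01 and 7.22 in WT and 7.86, 8.59 and 6.87 in TG. Array 3 was the lowest of each genotype, at -1.0 relative to the mean of the other arrays in WT and -1.35 in TG, and the highest and lowest values of all 6 were both in TG. The span from TG array 3 to TG array 2 was 1.71, or 3.28-fold. The genotype means were 7.89 ± 0.62 (SD, n = 3) in WT and 7.77 ± 0.86 (SD, n = 3) in TG. The difference of -0.12 ± 0.48 (SE) had a 95% interval of -1.27 to 1.04, so a difference of 1 log2 unit in either direction lay within the error of the limma fit (adjusted p = 0.99996).

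The other lectin and scavenger receptors, which mark macrophages of the dermis more than Langerhans cells, did not follow Cd207 over the arrays. Mrc1, the mannose receptor gene, read 5.18, 4.85 and 5.02 in WT and 4.85, 4.89 and 4.87 in TG. Cd163, the haemoglobin scavenger receptor gene, read 5.38, 5.32 and 5.51 in WT and 5.16, 5.22 and 5.37 in TG. Clec10a, a galactose-binding lectin gene, read 4.51, 4.45 and 5.09 in WT and 4.5, 4.53 and 5.19 in TG. All 3 genes read lower than Cd207, at 4.45 to 5.51. These levels lay below the array medians of 5.90 to 5.99 and toward the lower quartiles of 4.66 to 4.74. So low, a change over the arrays can be understated. Mrc1 and Cd163 spanned 0.34 and 0.35 log2 units over the 6 arrays, and Clec10a was highest on both arrays numbered 3, the reverse of Cd207. Their differences were -0.15 ± 0.13, -0.15 ± 0.13 and 0.058 ± 0.26 (SE).

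MHC class II molecules display peptides to CD4 T cells. H2-Ab1, a beta chain gene, read 10.89, 10.77 and 10.20 in WT and 10.35, 10.94 and 9.82 in TG. H2-Eb1, the beta chain gene of the second class II molecule, read 7.73, 7.76 and 7.13 in WT and 7.82, 8.08 and 7.12 in TG. Both were lowest on array 3 of each genotype and highest on TG array 2. H2-Aa, whose product pairs with that of H2-Ab1, read 7.36, 7.42 and 7.77 in WT and 7.23, 7.49 and 7.48 in TG. It was highest on WT array 3, so its order over the arrays was unlike that of its partner chain. The differences were -0.25 ± 0.32 (SE) for H2-Ab1, 0.13 ± 0.29 for H2-Eb1 and -0.12 ± 0.16 for H2-Aa.

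H2-DMa encodes a chain of the exchange factor that loads peptides onto class II molecules. It read 9.55, 9.44 and 9.29 in WT and 8.91, 9.38 and 8.75 in TG. TG arrays 1 and 3 lay below all WT arrays and TG array 2 lay among them. Its difference was -0.41 ± 0.19 (SE), with an interval of -0.87 to 0.048 and an unadjusted p of 0.0714 in limma. After quantile normalization its genotypes no longer overlapped, with a lowest WT value of 9.37 and a highest TG value of 9.29. It was the only 1 of the 33 to part in that setting, for which the share of all genes was not counted. In the main fit 7.2% of all genes parted and 0 of the 33 did.

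Ctss, encoding the protease cathepsin S that trims the class II invariant chain, read 8.52, 8.53 and 7.78 in WT and 8.14, 9.04 and 7.69 in TG. Cd86, a costimulatory ligand gene for T cells, read 6.67, 6.77 and 5.71 in WT and 6.36, 6.56 and 5.79 in TG. Both were lowest on the arrays numbered 3, and the genotypes differed by 0.013 ± 0.38 (SE) for Ctss and -0.15 ± 0.34 for Cd86. Ciita, the master regulator of class II transcription and not one of the 33, read 7.52, 7.27 and 6.99 in WT and 6.94, 7.23 and 6.95 in TG. Of 16 other genes of the class II pathway, 0 passed as higher and 0 as lower in TG (limma, adjusted over all genes), 2 had an unadjusted p under 0.05 (2.77% of all genes did), and the median difference was -0.02. Array 3 was the lowest in both genotypes for 3 of these 16, against 34.5% of all genes.

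**Figure D2:**
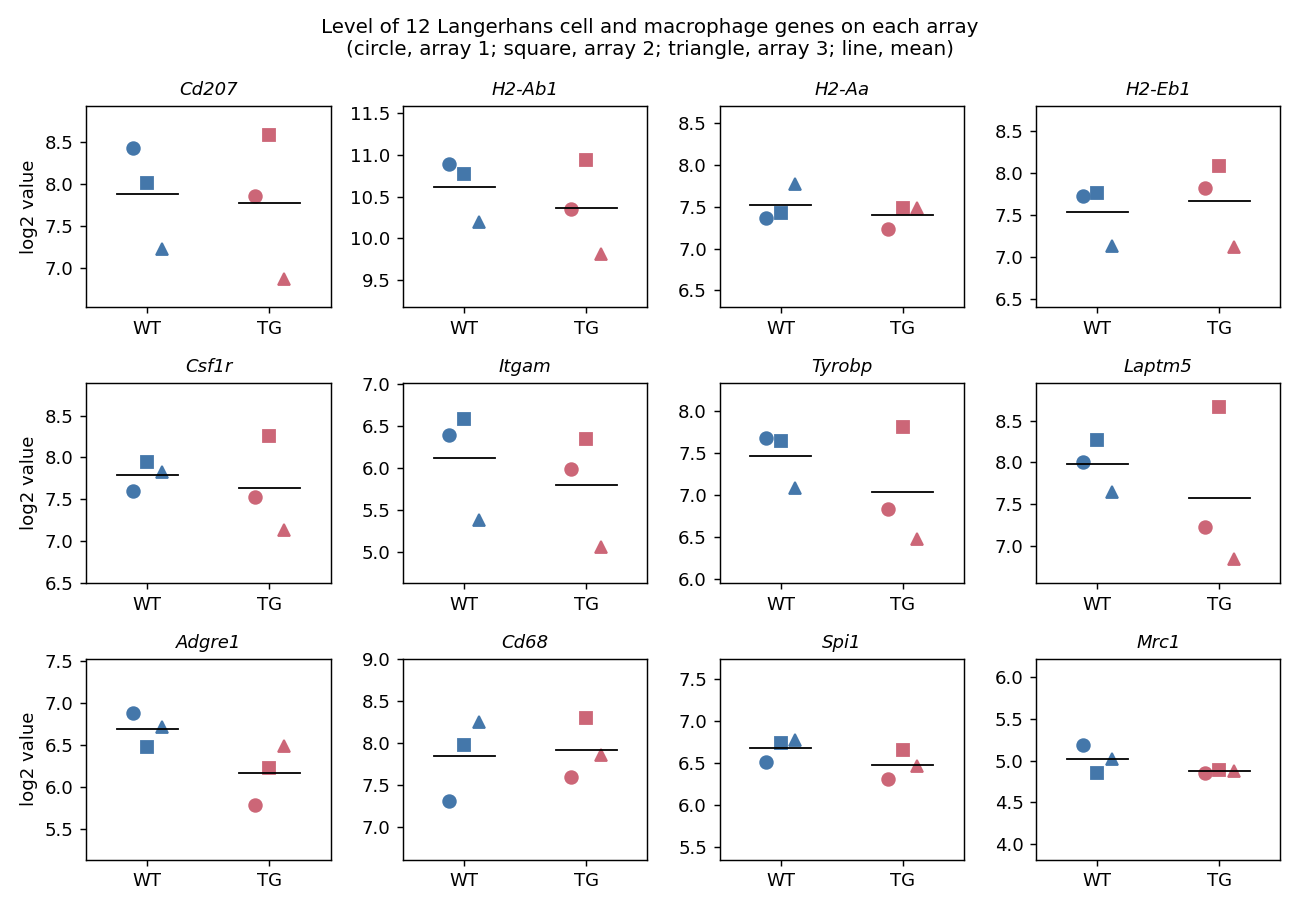
Log2 value (vertical axis, the same span in each panel) of 12 of the genes in WT (blue) and TG (red); circles, squares and triangles are arrays 1, 2 and 3 and lines are means of 3 arrays. The triangle is the lowest point of both groups for Cd207, H2-Ab1, H2-Eb1, Itgam, Tyrobp and Laptm5, but not for H2-Aa, Adgre1, Cd68, Spi1 or Mrc1, and the groups overlap in every panel.

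Csf1r, the receptor through which Langerhans cells and macrophages receive survival signals, read 7.60, 7.95 and 7.83 in WT and 7.53, 8.26 and 7.13 in TG. Its TG arrays spread over more than its WT arrays (SD 0.57 and 0.17), and both extremes were in TG. The difference was -0.15 ± 0.29 (SE). Its ligand genes, which are not among the 33, had lower means in TG. Il34, the keratinocyte ligand, read 9.78, 9.83 and 9.13 in WT and 8.30, 9.36 and 8.29 in TG, a difference of -0.93 ± 0.34. Csf1, the other ligand gene, read 9.03, 8.84 and 8.60 in WT and 7.82, 8.63 and 8.26 in TG, a difference of -0.59 ± 0.23. In each, TG arrays 1 and 3 lay below all WT arrays, while TG array 2 lay among them. Neither passed (limma, adjusted p = 0.99996 for both, unadjusted p = 0.0322 for Il34 and 0.0406 for Csf1), and with arrays paired by number the adjusted p was 0.538 and 0.57.

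Chemokine receptors guide these cells between blood, skin and lymph node. Ccr7, needed for the walk to the lymph node, read 6.87, 6.79 and 6.27 in WT and 6.94, 6.93 and 6.29 in TG. Cx3cr1, the fractalkine receptor gene, read 7.89, 7.70 and 7.13 in WT and 7.41, 7.74 and 7.13 in TG. Ccr2, by which monocytes leave the bone marrow, read 4.78, 4.89 and 4.5 in WT and 4.55, 4.98 and 4.43 in TG. All 3 were lowest on array 3 of both genotypes, and the differences between genotypes were 0.074 ± 0.25 (SE), -0.15 ± 0.25 and -0.069 ± 0.19.

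The β2-integrin alpha chains Itgam (CD11b) and Itgax (CD11c) serve adhesion and uptake by myeloid and dendritic cells. Itgam read 6.39, 6.58 and 5.38 in WT and 5.99, 6.35 and 5.06 in TG. Itgax read 5.79, 5.80 and 5.12 in WT and 5.70, 6.34 and 5.53 in TG. Relative to the mean of the other arrays, array 3 stood at -1.10 in WT and -1.11 in TG for Itgam, and at -0.67 and -0.49 for Itgax. Itgam had a negative difference, -0.31 ± 0.43 (SE), and Itgax the highest of the 33, 0.28 ± 0.28, which ran from 0.042 to 0.47 with arrays left out. Their common partner Itgb2, not among the 33, read 7.07, 6.83 and 6.36 in WT and 6.45, 7.10 and 6.15 in TG, again lowest on both arrays numbered 3.

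Fc receptors bind antibody, and Fcer1g and Tyrobp encode small adaptors that carry their signals and those of related receptors into the cell. Tyrobp read 7.68, 7.65 and 7.08 in WT and 6.83, 7.81 and 6.48 in TG. Fcer1g read 7.92, 8.26 and 7.0 in WT and 7.29, 8.15 and 7.23 in TG. Fcgr3 read 6.29, 6.33 and 5.83 in WT and 5.82, 5.93 and 5.78 in TG. All 3 were lowest on array 3 of each genotype, but TG array 1 was also low and lay nearer to TG array 3 than to TG array 2 for Tyrobp, Fcer1g and Fcgr3. The differences were -0.43 ± 0.36 (SE) for Tyrobp, -0.17 ± 0.39 for Fcer1g and -0.31 ± 0.17 for Fcgr3. With arrays left out that of Tyrobp ran from -0.82 to -0.15.

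The complement genes C1qa, C1qb and C1qc encode the 3 chains of C1q, which macrophages secrete and which triggers the classical pathway. C1qa read 7.35, 7.25 and 7.07 in WT and 7.04, 7.62 and 6.81 in TG. C1qb read 5.93, 5.80 and 5.73 in WT and 5.86, 5.70 and 5.89 in TG. C1qc read 5.79, 5.63 and 5.20 in WT and 5.67, 5.64 and 5.30 in TG. C1qa and C1qc were lowest on both arrays numbered 3, whereas C1qb spanned only 0.23 over the 6 arrays. The differences were -0.065 ± 0.23 (SE), -0.0035 ± 0.13 and -0.0038 ± 0.20.

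Adgre1, which encodes a surface antigen of macrophages that Langerhans cells also carry, read 6.88, 6.48 and 6.71 in WT and 5.78, 6.22 and 6.49 in TG. The lowest WT value lay just below the highest TG value, and array 3 was the lowest in neither genotype. The genotype means were 6.69 ± 0.20 (SD, n = 3) and 6.17 ± 0.36 (SD, n = 3). The difference of -0.52 ± 0.21 (SE), a TG to WT ratio of 0.696, was the largest of the 33 in size, with an interval of -1.03 to -0.012 and an unadjusted p of 0.0462 in limma. It was -0.24 without both arrays numbered 1 and -0.33 without TG array 1. With arrays paired by number, Adgre1, H2-DMa and Itgam had an unadjusted p under 0.05, or 3 of the 33 against 8.45% of all genes, and the lowest paired adjusted p of the 33 was 0.557.

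Cd68, a lysosomal membrane gene of macrophages, read 7.31, 7.98 and 8.25 in WT and 7.59, 8.30 and 7.86 in TG. It was lowest on array 1 of each genotype. Mpeg1, which encodes the pore-forming protein perforin-2, read 5.16, 5.53 and 5.70 in WT and 4.54, 5.72 and 4.82 in TG. Laptm5, a lysosomal membrane gene of blood cells, read 8.01, 8.27 and 7.65 in WT and 7.23, 8.66 and 6.85 in TG. Laptm5 had the widest range of the 33, 1.81 or 3.51-fold, between TG arrays 2 and 3. The differences were 0.069 ± 0.29 (SE) for Cd68, -0.44 ± 0.32 for Mpeg1 and -0.39 ± 0.46 for Laptm5. With arrays left out those of Mpeg1 and Laptm5 ran from -0.78 to -0.19 and from -0.93 to -0.03.

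Cd14 and Ly86 take part in the sensing of bacterial lipopolysaccharide and related ligands. Cd14 read 6.31, 6.20 and 5.37 in WT and 6.01, 6.42 and 5.44 in TG, low on both arrays numbered 3. Ly86 stayed between 4.5 and 4.95. Lyz2, the lysozyme gene of myeloid cells, read 6.23, 5.73 and 5.34 in WT and 6.13, 5.99 and 5.50 in TG. Cd52, a surface glycoprotein gene shared with lymphocytes, read 6.95, 6.89 and 5.82 in WT and 6.69, 7.05 and 5.44 in TG, with TG array 3 at -1.42 relative to the mean of the other TG arrays, the lowest such value of the 33. Aif1, encoding the actin-binding protein IBA1, and Ms4a7 spanned 0.39 and 0.38 over the 6 arrays. Of these 6 genes, Cd52 had the largest difference in size, -0.16 ± 0.48 (SE).

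Spi1 read 6.51, 6.74 and 6.78 in WT and 6.31, 6.65 and 6.47 in TG. It spanned 0.47 over the arrays and was highest on WT array 3, so it did not share the low values on the arrays numbered 3 of Cd207, Itgam or the Fc adaptors. Its difference was -0.20 ± 0.15 (SE). Irf8, a partner factor of PU.1 and not among the 33, read 6.58, 6.18 and 6.11 in WT and 6.21, 6.24 and 6.19 in TG.

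**Figure D3:**
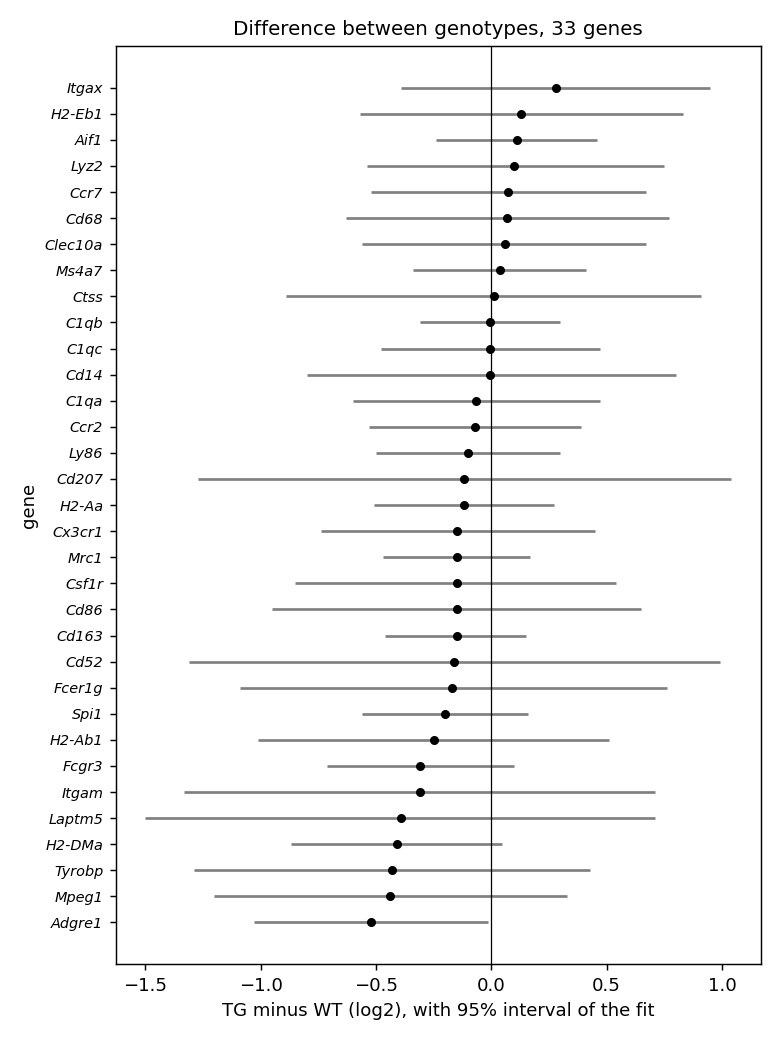
TG minus WT difference (horizontal axis, log2) of the 33 genes (vertical axis, ordered by the difference); points are estimates and bars 95% intervals of the limma fit over 3 arrays a genotype. The points run from -0.52 for Adgre1 to 0.28 for Itgax, and only the interval of Adgre1, -1.03 to -0.012, leaves out 0, with no adjustment for the number of genes.

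Further genes of these cells were counted from lists. Of 21 other genes of the Langerhans lineage and its niche, 0 passed in either direction and 3 had an unadjusted p under 0.05 (limma), with a median difference of -0.019. Of 35 other myeloid genes, 30 were measured, of which 0 passed and 2 had an unadjusted p under 0.05, with 15 differences below 0 and 15 above. Over all genes 2.77% had such a p. Array 3 was the lowest in both genotypes for 15 of these 30 and for 10 of the 21, against 34.5% of all genes. Ptprc, the CD45 gene common to all white blood cells, read 7.16, 7.69 and 6.17 in WT and 6.86, 8.34 and 5.63 in TG, a range of 2.71. It was lowest on array 3 of each genotype and highest on TG array 2.

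Markers of other cells moved over the same arrays. The 13 measured T cell markers of 17 listed had a mean level of 7.95, 8.34 and 6.79 in WT and 7.50, 8.74 and 6.64 in TG, and 12 of the 13 were lowest on array 3 in both genotypes. Cd3e among them read 8.91 on WT array 3 and 7.87 on TG array 3, against 9.62 to 11.37 on the other arrays. The 10 suprabasal keratinocyte markers, of the differentiating epidermis, had a mean level of 12.14, 12.26 and 10.33 in WT and 10.94, 12.08 and 9.87 in TG, with 9 of 10 lowest on array 3 in both. Krt10 among them was lowest on both arrays numbered 3, at 13.26 in WT and 13.02 in TG. The mean level of the 8 bulge stem cell markers ran the other way, at 9.84, 9.79 and 11.29 in WT and 10.97, 9.81 and 11.05 in TG. Gene by gene this was less even. Of the 8, 3 were highest on array 3 in both genotypes (23.5% of all genes) and 1 was lowest in both (34.5% of all genes). Cd34, the sort marker, read 9.78, 9.89 and 13.07 in WT and 11.57, 9.65 and 12.42 in TG, while Itga6, the gene of the other sort marker, had a range of 0.48 over the 6 arrays.

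The mean level of the 33 genes was 6.75, 6.76 and 6.40 in WT and 6.47, 6.85 and 6.23 in TG. Their summed log2 level was 211.2 to 223.0 in WT and 205.7 to 226.0 in TG. Within each genotype the mean level put the arrays in the same order as for the T cell, suprabasal keratinocyte and neutrophil markers. For the 33, however, WT arrays 1 and 2 were almost level. By the median deviation from the gene's own mean, WT array 1 stood above WT array 2 for the 33 (0.23 and 0.18). For the T cell markers it stood below (0.35 and 0.74). Cd34 was highest on the array of each genotype where the mean level of the 33 was lowest. The median deviation from the gene's own mean was -0.17 on WT array 3 and -0.37 on TG array 3 for the 33, -0.95 and -1.07 for the T cell markers and -0.89 and -1.48 for the suprabasal markers. Markers of mast cells (8 measured), neutrophils (12), B cells (5), fibroblasts (6), endothelium (6), melanocytes (6) and red cells and platelets (2 of 5 listed) had median deviations on these 2 arrays between -0.81 and 0.51. Among them, 7 of the 12 neutrophil markers were lowest on array 3 in both genotypes (34.5% of all genes). By contrast, 5 of the 6 endothelium markers were highest on it in both (23.5% of all genes). Whether the mix of cells in each sort had a part in the values of the 33 genes was not tested.

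**Figure D4:**
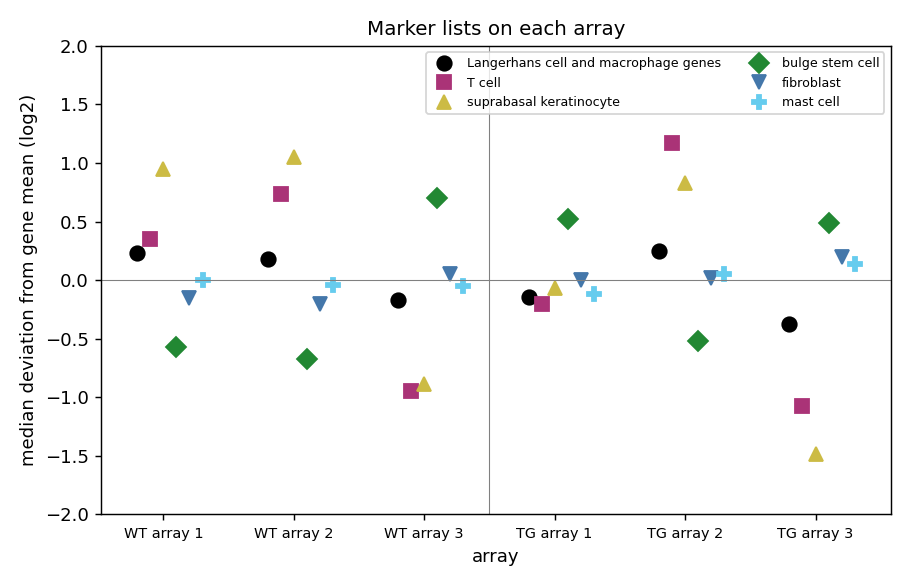
Median deviation of each marker list from its genes' own means over 6 arrays (vertical axis, log2) on the 6 arrays (horizontal axis, WT left and TG right of the line; symbols are set side by side so that none hides another). The 33 Langerhans cell and macrophage genes (black circles) lie between -0.37 and 0.25. They lie below 0 on WT array 3, TG array 1 and TG array 3, like the T cell markers (squares) and the suprabasal keratinocyte markers (upward triangles). The bulge stem cell markers (diamonds) lie above 0 on these 3 arrays.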

How the data were processed

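The values are the authors' deposited log2 expression values of Affymetrix GeneChip Mouse Gene 2.0 ST arrays, 1 per array and feature. Tools listed by the submitters' processing notes are Transcriptome Analysis Console and Affymetrix Expression Console (1.4.1), with no settings. The log base was read from the values. How probes were summarised, how arrays were scaled and which genome build was used is not given in the sources used here. Of 41345 features, 23521 had exactly 1 gene symbol in the platform annotation. The brightest per gene left 22180 genes, with no filter on low values, and the symbols of the 33 genes matched RefSeq (GRCm38.p6) by gene ID.

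All 22180 genes were fitted with limma (3.58.1, R 4.3.3; lmFit, eBayes), TG against WT. P-values are two-sided, were adjusted by Benjamini and Hochberg's method over the whole table, and passed below 0.05. The fit was tested on simulated data in which every array was drawn independently. That test does not cover spread shared between arrays. Differences are TG minus WT with the moderated standard error (SE). The 33 genes and the other lists were chosen with earlier results of these data known. The 33 and 12 genes fixed by name (Ptprc, Itgb2, Ciita, Il34, Csf1, Irf8, Epcam, Cd3e, Krt10, Cd34, Itga6, Pla2g2a) could be named. Deviations from genotype means correlated at 0.20, 0.67 and 0.74 between arrays numbered 1, 2 and 3, above the limit of 0.1, so the replicate number was also fitted as a block. That pairing comes from the values, and WT array 1 correlated more with TG array 2 (0.50). Precision is limited by the number of arrays. Alternatives were the block, quantile normalization, the mean of a gene's features, a filter on low values, array weights, an intensity trend and leaving out arrays.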

Additional observations from a re-analysis of the deposited data

How the results depend on the processing

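No gene of the 33 passed under any of the 15 alternatives, and their lowest adjusted p was 0.251 (limma, Adgre1 with array weights). The replicate block, which pairs the arrays by number, changed no call of the 33, left 1 gene past the threshold among all genes and gave a lowest paired adjusted p of 0.557 for the 33. Quantile normalization parted the genotypes for 1 of the 33, H2-DMa. The share of all genes was not counted for that setting. In the main fit the genotypes parted for 7.2% of all genes and for 0 of the 33. Of the 33, 15 lay above the median level of all genes, and this filter left 11 with TG below WT and 11 lowest on array 3 in both genotypes, since fewer genes were tested. Both of these counts were added after seeing the data. With array weights the difference turned to -0.026 for Cd68 and -0.2 for Ctss. With quantile normalization it turned to 0.0071 for Cd14, 0.024 for C1qb, 0.026 for C1qc and -0.032 for Ctss. The causes were not tested.

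Leaving out single arrays, or both arrays of a number, the count of genes past the threshold was 0 to 1 as higher in TG. Pla2g2a lost its call without TG array 1 (limma, adjusted p = 0.065), without both arrays numbered 2 (0.14) and without both numbered 3 (0.173), where its difference stayed between 6.16 and 6.34. Genes of the 33 whose genotypes did not overlap numbered 0 to 12, and those with TG below WT 14 to 28. Over all genes the genotypes parted more often with fewer arrays, and without both arrays numbered 3 the genotypes parted for 24.2% of the 33 and for 37.7% of all genes. The sign held under all settings for 10 of the 33 (Adgre1, Cd163, Fcgr3, H2-DMa, Itgax, Laptm5, Mpeg1, Mrc1, Spi1 and Tyrobp) and turned for 23. Sizes among these 10 still moved with arrays left out, Adgre1 from -0.69 to -0.24, Fcgr3 from -0.46 to -0.22, H2-DMa from -0.6 to -0.28 and Spi1 from -0.29 to -0.11. Those of Laptm5 were -0.93 to -0.03, of Tyrobp -0.82 to -0.15 and of Mpeg1 -0.78 to -0.19. Itgax lay at 0.042 to 0.47, Cd163 at -0.21 to -0.1 and Mrc1 at -0.24 to -0.053. With arrays left out, the difference ran for Aif1 from -0.027 to 0.21, C1qa from -0.3 to 0.11, C1qb from -0.084 to 0.055 and C1qc from -0.18 to 0.12. It also ran for Ccr2 from -0.23 to 0.042, Ccr7 from -0.11 to 0.29, Cd14 from -0.3 to 0.25 and Cd207 from -0.52 to 0.33. The ranges were, for Cd52 from -0.53 to 0.32, Cd68 from -0.2 to 0.3, Cd86 from -0.49 to 0.075 and Clec10a from -0.17 to 0.26. Under these settings it spanned, for Csf1r from -0.47 to 0.12, Ctss from -0.36 to 0.31, Cx3cr1 from -0.37 to 0.022 and Fcer1g from -0.53 to 0.1. The values went, for H2-Aa from -0.21 to 0.012, H2-Ab1 from -0.53 to 0.028, H2-Eb1 from -0.075 to 0.41 and Itgam from -0.68 to 0.055. The difference lay, for Ly86 from -0.22 to 0.056, Lyz2 from -0.11 to 0.33 and Ms4a7 from -0.051 to 0.14. Among genes outside the 33 it ran for Cd34 from -0.45 to 1.37, Cd3e from -1.3 to 0.45, Irf8 from -0.16 to 0.073 and Itga6 from -0.18 to 0.062. There it also ran for Itgb2 from -0.45 to 0.034, Krt10 from -0.48 to 0.086 and Ptprc from -0.76 to 0.59. The sign held for the other outside genes fixed by name. These were Il34 (-1.29 to -0.65), Csf1 (-0.78 to -0.28), Ciita (-0.36 to -0.042), Epcam (0.069 to 0.26) and Pla2g2a (6.16 to 6.7). The number of arrays limits what can be told apart here, and background levels were not used here.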
